A study of Mus musculus with 12 samples.

Results

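Levels of 9 genes that mark the granule cells of the dentate gyrus, *Prox1*, *Dsp*, *C1ql2*, *Lct*, *Tdo2*, *Trpc6*, *Stxbp6*, *Pdzd2* and *Glis3*, were examined by RNA-seq in mouse brain. They were chosen by gene symbol, and each was found once among the 23183 genes listed for every library. Male C57BL/6 mice had been bought at 7 weeks of age, kept for 1 week and then sham-irradiated (Con) or given a single X-ray dose of 10 Gy to the whole brain (IR). Cortex and hippocampus of both groups were taken 3 months after the treatment. There were 3 libraries for each of the 4 groups, cortex Con, cortex IR, hippocampus Con and hippocampus IR, and 12 in all. All mice were of the same strain and sex, and the labels name no engineered allele. The labels do not say whether libraries of the same number in cortex and hippocampus came from the same mouse, nor whether the 3 libraries of a group came from 3 separate mice, so that the p values below measure the spread between these libraries.

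Granule cells are the principal neurons of the dentate gyrus, the entry region of the hippocampal circuit. They receive input from the entorhinal cortex, and their axons, the mossy fibres, end with large synapses on pyramidal cells of area CA3. New granule cells are made from stem cells in the adult dentate gyrus, and this production is known to be sensitive to radiation. The cortex holds no granule cells of this kind, although some of the 9 genes are also used there by other cells: *Prox1*, for instance, is a marker of interneurons that arise in the caudal ganglionic eminence (CGE). In a library of whole tissue, fewer cells of a type and less RNA per cell cannot be told apart.

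Values were FPKM, fragment counts scaled to transcript length and to sequencing depth. The FPKM of a library summed to between 359773 and 393447, and no pair of libraries was identical. The number of reads behind a value is unknown. Steps between the lowest values put the depth of the libraries at 1 to 1.13 times that of library Con 1 of the same tissue. The tissue labels were checked against 8 genes of cortical layers, all of which were lower in hippocampus than in cortex, with summed levels of 49.7 to 53.8 FPKM in hippocampus Con against 205 to 264 FPKM in cortex Con. There were 3 libraries that stood apart in genes of the choroid plexus, the tissue that makes cerebrospinal fluid and lies against the hippocampus. The summed level of its 6 genes was 1064 FPKM in hippocampus Con 2 and 1655 FPKM in hippocampus IR 1, against 22.9 to 66.5 FPKM in the other 4 hippocampus libraries, and it was 440 FPKM in cortex IR 2 against 4.53 to 31.1 FPKM in the other cortex libraries. *Ttr*, which encodes the thyroid hormone carrier transthyretin, made up most of it. Comparisons of IR with Con were therefore repeated without these 3 libraries. Cortex and hippocampus files also carried different endings in their names, so that a tissue difference and a difference between processing runs, if there were separate runs, cannot be told apart.

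The promoters of 3 members are shown here because they include GC-rich and GC-poor promoters of genes with large differences between the tissues. Each is the stretch of 250 bases before the RefSeq transcription start on GRCm38.p6, 5′ to 3′ on the strand of the gene. Capitals mark CAGATG, an E-box bound by NEUROD proteins, TATAAA, the TATA box, and GGGCGG, the GC box, each on either strand. *Prox1* lies at chr1:190118035-190170714 (minus strand), and the promoter of the more upstream of its 2 RefSeq starts at chr1:190170828-190171077. *Dsp* lies at chr13:38151294-38198577 (plus strand) with its promoter at chr13:38151044-38151293, and *Lct* at chr1:128284756-128328318 (minus strand) with its promoter at chr1:128328319-128328568.
Prox1: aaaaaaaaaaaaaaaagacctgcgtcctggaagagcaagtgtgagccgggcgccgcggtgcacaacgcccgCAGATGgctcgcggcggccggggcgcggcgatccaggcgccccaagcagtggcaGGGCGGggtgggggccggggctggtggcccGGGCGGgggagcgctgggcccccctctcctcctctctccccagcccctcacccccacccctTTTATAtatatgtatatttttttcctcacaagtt
Dsp: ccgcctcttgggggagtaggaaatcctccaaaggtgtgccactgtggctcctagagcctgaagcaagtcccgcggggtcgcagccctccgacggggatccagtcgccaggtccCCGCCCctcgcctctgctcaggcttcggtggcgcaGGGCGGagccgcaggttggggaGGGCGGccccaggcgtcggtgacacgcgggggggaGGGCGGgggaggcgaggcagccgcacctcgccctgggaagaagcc
Lct: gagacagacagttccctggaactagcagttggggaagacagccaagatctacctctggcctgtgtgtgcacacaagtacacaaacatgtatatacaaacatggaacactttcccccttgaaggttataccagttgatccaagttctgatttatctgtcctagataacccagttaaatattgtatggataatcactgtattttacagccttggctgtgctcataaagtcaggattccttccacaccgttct
GC made up 64.8% of the bases in the *Prox1* promoter, 72.4% in that of *Dsp* and only 42.8% in that of *Lct*. The CpG dinucleotide occurred at 0.762 and 0.679 of the rate set by base composition in *Prox1* and *Dsp*, and at 0.0883 of it in *Lct*. Over 32841 RefSeq promoters the median was 52.4% for GC and 0.374 for the CpG ratio. Of the other members, *C1ql2*, *Trpc6*, *Stxbp6*, *Pdzd2* and *Glis3* had GC of 56.4% to 75.6%, and *Tdo2*, at 46.4% with a CpG ratio of 0.224, was the other one below both medians. CAGATG was found in the promoter of 1 member, *Prox1*, against 14.4% of all promoters. The GC box was found in *Prox1*, *Dsp*, *Pdzd2* and *Glis3*, and in 32.7% of all promoters. TATAAA was found in *Prox1* and *Tdo2* and in 12.4% of all, CCAAT in *Tdo2* alone and in 33.9% of all, and the cAMP response element TGACGTCA in no member and in 1.55% of all. No match in a member overlapped a match of another motif. None of the 5 motifs was thus common to all 9 members in this window, and the genes that were nearly absent from cortex included both GC-rich and GC-poor promoters.

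Hippocampus was compared with cortex in Con mice to ask how strictly each gene follows the tissue that holds the dentate gyrus. Of the 9 members, 8 were higher in hippocampus and 1, *Pdzd2*, was lower (limma on log2(FPKM + 1), adjusted p under 0.05 over 14169 genes). This has to be read against the background, since 36.3% of all genes tested passed in either direction, 19% higher and 17.3% lower in hippocampus. Groups that did not overlap were found for all 9 members, and, over all genes, for 26.7% that were higher and 23.1% that were lower in hippocampus. The 3 members *Dsp*, *Lct* and *Tdo2* passed the filter on low values through the hippocampus libraries alone and so had to differ, and they support nothing here. Of the other 6, which passed in both tissues, 5 were higher in hippocampus and *Pdzd2* was lower. The mean FPKM was at least 5 times higher in hippocampus for *Prox1* and *C1ql2* among these 6, and for 126 genes or 0.889% of all tested. The count of 126 was made over all genes tested, without the limit to genes that passed in both tissues. Over all 9 members the median log2 fold change was 2.13, which is the value of *Tdo2*, against 0.02 over the 14169 genes tested. With at least 1 FPKM required in every library, which left 5 members, the median was 0.79. The median of all genes under that stricter filter is not given here.

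**Figure D1:**
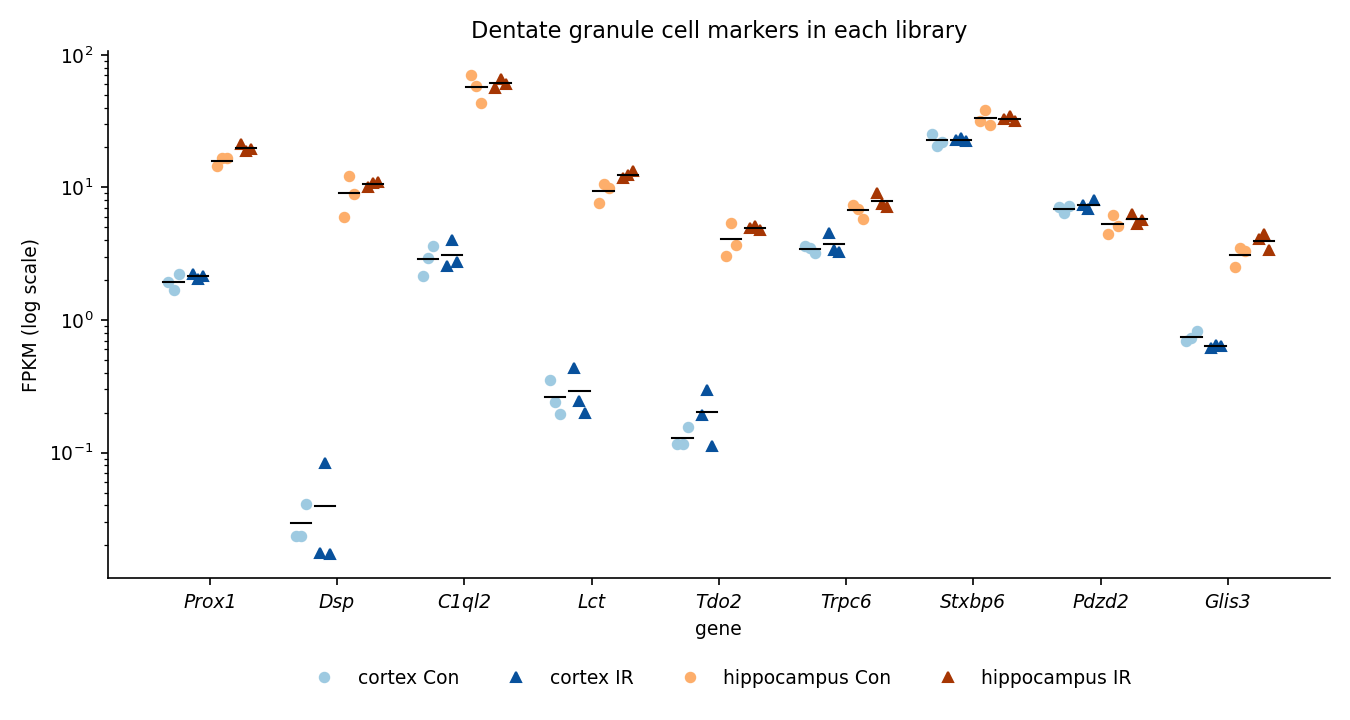
FPKM of the 9 genes in each of the 12 libraries, on a log axis, with cortex in blue, hippocampus in orange to brown, circles for Con, triangles for IR and a bar for the mean of 3 libraries. The hippocampus libraries lie above all cortex libraries for 8 genes, by the widest gap for *Dsp*, and below them for *Pdzd2*.

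Among the nuclear regulators, *Prox1* encodes a homeobox transcription factor that granule cells need to take on and keep their identity. It stood at 14.4, 16.6 and 16.7 FPKM in hippocampus Con 1, 2 and 3, and at 1.93, 1.69 and 2.23 FPKM in cortex Con. The ranges lay far apart, and cortex kept a low but clear level in every library. The means were 15.9 ± 1.30 and 1.95 ± 0.272 FPKM (SD, n = 3), a ratio of 8.15, and the log2 fold change was 2.52 (SE 0.10, limma adjusted p = 3.34e-07). The 6 genes of CGE-derived interneurons, cells that also use *Prox1*, were split, with 2 higher in hippocampus and 3 lower, and their summed level was 430 to 479 FPKM in hippocampus Con against 602 to 707 FPKM in cortex Con. That sum is mostly *Cck*, a neuropeptide gene with means of 409 and 506 FPKM, and *Lamp5*, also a gene of cortical layers, with means of 15.6 and 104 FPKM, while the other 4 genes summed to 24.2 to 27.7 FPKM in hippocampus Con and 44.4 to 51.7 FPKM in cortex Con.

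*Glis3*, on chromosome 19, encodes a Krüppel-like zinc finger protein. Its levels were 2.49, 3.47 and 3.30 FPKM in hippocampus Con and 0.695, 0.735 and 0.820 FPKM in cortex Con, without overlap. The mean was 4.11 times higher in hippocampus, with a log2 fold change of 1.22 (SE 0.12, limma adjusted p = 4.65e-05).

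*Dsp*, *C1ql2* and *Stxbp6* encode proteins of contacts and synapses. Desmoplakin, the product of *Dsp*, anchors intermediate filaments at desmosomes. Its mRNA was at 5.94, 12.1 and 8.97 FPKM in hippocampus Con and at 0.0235, 0.0236 and 0.0411 FPKM in cortex Con. Cortex was thus near 0, and the ratio of means of 306 rests on those near-zero values. The log2 fold change, which the pseudocount of 1 FPKM holds down for such a gene, was 3.23 (SE 0.20, limma adjusted p = 3.82e-06).

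*C1ql2* encodes a secreted C1q-like protein of mossy fibre synapses, where C1q-like proteins gather kainate receptors. It reached 70.7, 57.8 and 43.6 FPKM in hippocampus Con and 2.13, 2.96 and 3.63 FPKM in cortex Con. With IR included, its lowest hippocampus library was still 10.8 times its highest cortex library. The log2 fold change was 3.89 (SE 0.19, limma adjusted p = 3.07e-06). This was the largest of the 9 on the log2(FPKM + 1) scale, but with a pseudocount of 0.1 those of *Dsp* (6.08) and *Lct* (4.72) exceeded that of *C1ql2* (4.26). The gene occupies chr1:120340582-120343174 on the plus strand and spans the fewest bases of the group.

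Amisyn, the product of *Stxbp6*, binds syntaxin and acts on vesicle fusion. Here both tissues had high levels, with 31.7, 38.5 and 29.4 FPKM in hippocampus Con and 25.3, 20.7 and 22.0 FPKM in cortex Con. The groups did not overlap, but the mean was only 1.47 times higher in hippocampus, a log2 fold change of 0.53 (SE 0.11, limma adjusted p = 0.00536). *Stxbp6* was the most highly expressed of the 9 genes in cortex.

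*Lct* and *Tdo2* encode enzymes best known from other organs. Lactase, from *Lct*, is the milk sugar hydrolase of the intestinal brush border, and tryptophan 2,3-dioxygenase, from *Tdo2*, starts the kynurenine pathway of tryptophan breakdown in the liver. *Lct* was at 7.60, 10.6 and 9.85 FPKM in hippocampus Con and at 0.352, 0.241 and 0.194 FPKM in cortex Con. *Tdo2*, on chromosome 3, was at 3.06, 5.42 and 3.67 FPKM in hippocampus Con and at 0.117, 0.116 and 0.155 FPKM in cortex Con. Neither enzyme gene reached 0.5 FPKM in any cortex library, Con or IR. The ratio of means was 35.7 for *Lct* and 31.3 for *Tdo2*. The log2 fold change was 3.03 (SE 0.13, limma adjusted p = 3.83e-07) for *Lct* and 2.13 (SE 0.16, limma adjusted p = 8.55e-06) for *Tdo2*.

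*Trpc6* encodes a cation channel opened by diacylglycerol. Its levels were 7.41, 6.89 and 5.82 FPKM in hippocampus Con and 3.60, 3.52 and 3.20 FPKM in cortex Con. These did not overlap, and the mean was 1.95 times higher in hippocampus with a log2 fold change of 0.79 (SE 0.10, limma adjusted p = 0.000289). *Pdzd2*, which encodes a protein with several PDZ domains, went the other way. It was at 4.44, 6.22 and 5.11 FPKM in hippocampus Con and at 7.08, 6.42 and 7.23 FPKM in cortex Con. Every cortex library lay above every hippocampus library, though by little, since with IR included the highest hippocampus library was at 6.27 FPKM and the lowest cortex library at 6.42 FPKM. The mean was 1.31 times higher in cortex, and the log2 fold change was -0.35 (SE 0.11, limma adjusted p = 0.0373). That call was lost when any 1 of 5 libraries was left out, cortex Con 1, 2 or 3 or hippocampus Con 1 or 3, with adjusted p values of 0.0584 to 0.114. In whole tissue, then, the data do not bear out *Pdzd2* as a gene of higher level in hippocampus, while its label as a granule cell marker refers to the cells and was not tested.

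**Figure D2:**
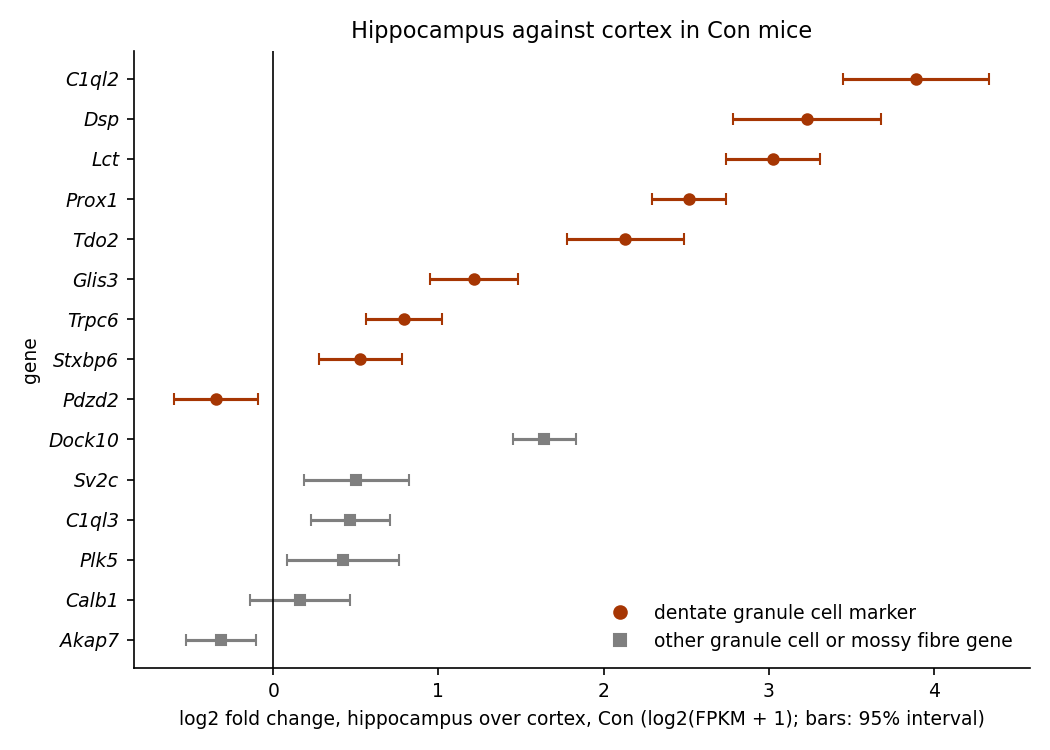
Log2 fold change of hippocampus over cortex in Con mice on the log2(FPKM + 1) scale, with 95% intervals from limma, for the 9 markers (circles) and 6 other genes of granule cells or mossy fibres (squares). Markers run from 3.89 for *C1ql2* down to -0.35 for *Pdzd2*, and the interval of *Calb1* spans 0.

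FPKM are scaled to length, so the levels of the 9 genes can be set in order. In hippocampus Con the order was *C1ql2*, *Stxbp6*, *Prox1* and *Lct*, with means of 57.4, 33.2, 15.9 and 9.37 FPKM, and each of the first 3 lay above the next in every library. From *Lct* downward, through *Dsp*, *Trpc6*, *Pdzd2*, *Tdo2* and *Glis3*, the ranges of neighbours overlapped. Cortex Con had another order, with *Stxbp6* at 22.7 and *Pdzd2* at 6.91 FPKM on top. There *Trpc6* overlapped with *C1ql2* and *C1ql2* with *Prox1*, whereas *Glis3*, *Lct*, *Tdo2* and *Dsp* followed without overlap between neighbours. The spread among hippocampus Con libraries, as the SD in percent of the mean, was smallest for *Prox1* (8.20%) and largest for *Dsp* (34.3%) and *Tdo2* (30.3%).

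A further 6 genes of granule cells and mossy fibres were examined beside the members. Of these, 3 were higher in hippocampus (*Dock10*, *Sv2c* and *C1ql3*), 1 was lower (*Akap7*) and 2 did not pass (*Calb1* and *Plk5*). *Dock10*, a guanine nucleotide exchange factor gene, stood at 12.1, 13.7 and 12.6 FPKM in hippocampus Con and 3.43, 3.22 and 3.62 FPKM in cortex Con, a ratio of means of 3.74. *Calb1*, the gene of the calcium buffer calbindin and a classic label of granule cells in sections, had a log2 fold change of 0.16 with a 95% interval of -0.14 to 0.46 (limma adjusted p = 0.390), with 39.8 to 44.7 FPKM in cortex Con. *Akap7*, which encodes an anchoring protein for protein kinase A, was 1.27 times higher in cortex. The calls of *Akap7* and *Sv2c* were lost without single libraries, *Akap7* without cortex Con 1 or 3 or hippocampus Con 1 or 3 (adjusted p up to 0.106) and *Sv2c* without cortex Con 1 or 2 (up to 0.0695), and *Plk5* passed without cortex Con 1 (0.0338) or hippocampus Con 1 (0.0108), and with all libraries kept when at least 1 FPKM was required in every library (0.0490) or all 12 libraries shared a fit (0.0173).

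Genes of the other fields of the hippocampus differed in how they followed the tissue. All 5 CA3 genes and 4 of 5 CA2 genes were higher in hippocampus, while the 5 CA1 genes were split with 2 higher and 2 lower. The lower CA2 gene was *Pcp4*, a calmodulin-binding peptide gene with means of 143 FPKM in hippocampus Con and 243 FPKM in cortex Con, and the summed CA2 level was lower in hippocampus Con (189 to 224 FPKM) than in cortex Con (246 to 273 FPKM). The summed CA1 level overlapped, at 171 to 198 FPKM in hippocampus Con and 149 to 178 FPKM in cortex Con. Of 8 genes of immature granule neurons and neuroblasts, 5 passed the filter, with 3 higher and 1 lower in hippocampus, and the other 3 (*Draxin*, *Igfbpl1* and *Eomes*) were too low to be tested. Of 6 thalamus genes 1 was higher and 3 were lower, and of 6 striatum genes 3 were lower.

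The second question was whether the members differed between IR and Con in the hippocampus. No member passed an adjusted p of 0.05 (limma, 14043 genes tested), and at that threshold 4 genes in all, 0.0285%, did so. At an unadjusted p under 0.05, *Prox1* and *Lct* were higher in IR, 2 of 9 members against 7.06% of all genes. Of the 9 members, 8 had a log2 fold change above 0, as had 47.3% of all genes, with a median of 0.26 over the members and -0.01 over all genes. No member reached a fold change of 1.5, which 0.242% of all genes did upward with an unadjusted p under 0.05. The members were listed with these data known, so that no test over the group was made.

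*Prox1* was at 14.4, 16.6 and 16.7 FPKM in Con and at 21.1, 18.8 and 19.6 FPKM in IR. All IR libraries lay above all Con libraries. From Con to IR the mean went from 15.9 ± 1.30 to 19.8 ± 1.15 FPKM (SD, n = 3), a ratio of 1.25, and the log2 fold change was 0.30 (SE 0.08, limma adjusted p = 0.247). *Lct* was at 7.60, 10.6 and 9.85 FPKM in Con and at 11.9, 12.3 and 13.2 FPKM in IR, again without overlap. Means of 9.37 ± 1.58 FPKM for Con and 12.5 ± 0.683 FPKM for IR (SD, n = 3) gave a ratio of 1.33 and a log2 fold change of 0.39 (SE 0.11, limma adjusted p = 0.270). Groups without overlap, higher in IR, were found for these 2 members and for 10.5% of all genes. A permutation of 3 against 3 libraries cannot give a p below 0.1 for a single gene.

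The other members overlapped between the groups. *Glis3* was at 2.49, 3.47 and 3.30 FPKM in Con and at 4.06, 4.43 and 3.37 FPKM in IR. Its IR 1 and IR 2 lay above all Con libraries and its IR 3 between them, with a ratio of 1.28 and a log2 fold change of 0.28 (SE 0.12, limma adjusted p = 0.363). *Tdo2* and *Dsp* shared a pattern in which Con 1 and Con 3 were below every IR library and Con 2 above it. *Tdo2* was at 3.06, 5.42 and 3.67 FPKM in Con and at 4.94, 5.09 and 4.75 FPKM in IR. *Dsp* was at 5.94, 12.1 and 8.97 FPKM in Con and at 10.2, 10.8 and 10.98 FPKM in IR. The log2 fold changes were 0.26 for *Tdo2* (adjusted p = 0.465) and 0.27 for *Dsp* (adjusted p = 0.548), both by limma, and the 95% interval for *Dsp*, -0.19 to 0.72, leaves room for a change of either sign. Without Con 1 they were 0.11 for *Tdo2* and 0.027 for *Dsp*, and without Con 2 0.45 and 0.49.

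*Trpc6* was at 7.41, 6.89 and 5.82 FPKM in Con and at 9.01, 7.52 and 7.14 FPKM in IR, and only Con 1 exceeded an IR library. *Pdzd2* was at 4.44, 6.22 and 5.11 FPKM in Con and at 6.27, 5.31 and 5.65 FPKM in IR. *C1ql2*, the mossy fibre synapse gene, was spread widely within Con, at 70.7, 57.8 and 43.6 FPKM, and its IR libraries, at 56.2, 65.7 and 60.5 FPKM, fell inside that range. *Stxbp6* behaved in the same way, with 31.7, 38.5 and 29.4 FPKM in Con and 32.7, 34.3 and 31.4 FPKM in IR. Their log2 fold changes were 0.21 for *Trpc6*, 0.12 for *Pdzd2*, 0.11 for *C1ql2* and -0.0089 for *Stxbp6*, with limma adjusted p values of 0.422 to 0.975. The sign of *Stxbp6* turned under quantile normalization (0.029), and that of *C1ql2* turned without Con 3 (-0.075).

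**Figure D3:**
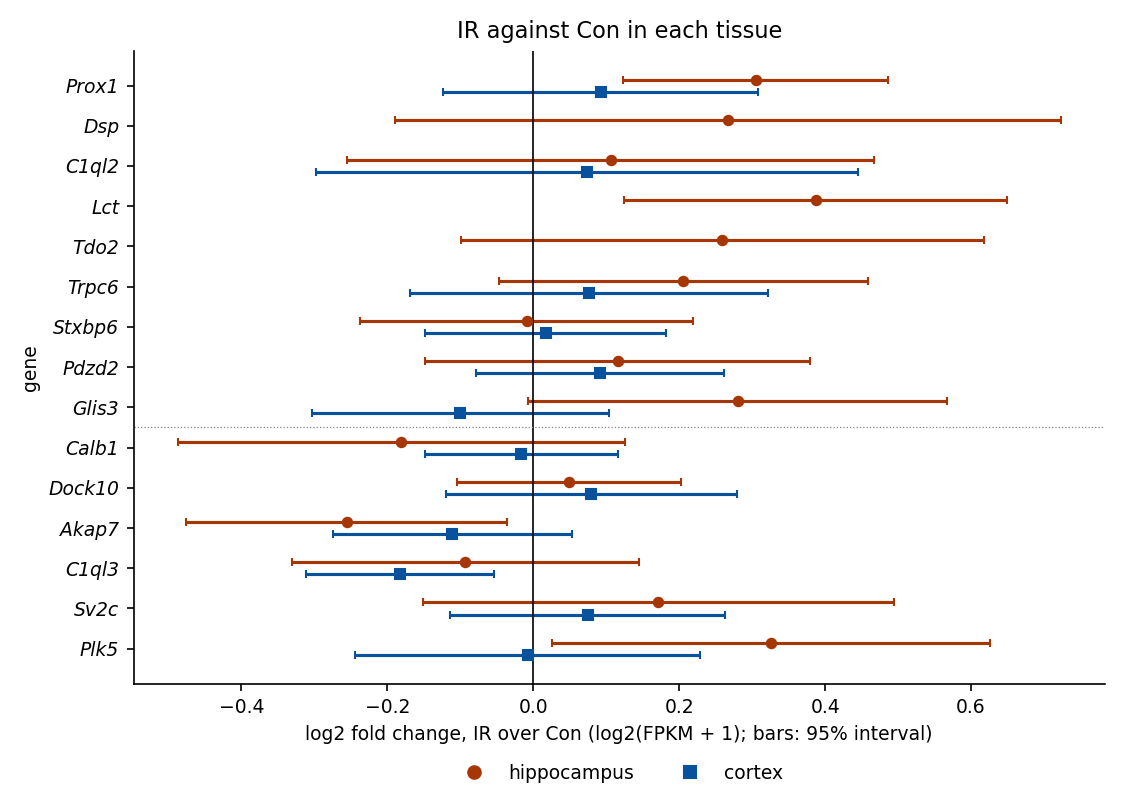
Log2 fold change of IR over Con on the log2(FPKM + 1) scale with 95% intervals from limma, for hippocampus (circles) and cortex (squares), with the 9 markers above the dotted line and 6 other granule cell and mossy fibre genes below it. Genes without a cortex point did not pass the filter there. In hippocampus the intervals of *Prox1* and *Lct* lie above 0 and those of the other 7 markers include it.

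Library by library, the lower values sat mostly in Con 1 and the higher ones in the IR libraries and Con 2. The lowest of the 6 hippocampus values was in a Con library for all 9 members, compared with 54.4% of all genes. It was in Con 1 for 6 of them (*Prox1*, *Dsp*, *Lct*, *Tdo2*, *Pdzd2* and *Glis3*), compared with 22.5% of all genes, and in Con 3 for *C1ql2*, *Trpc6* and *Stxbp6*. The highest value was in Con 2 for *Dsp*, *Tdo2* and *Stxbp6*, in Con 1 for *C1ql2*, in IR 1 for *Prox1*, *Trpc6* and *Pdzd2*, in IR 2 for *Glis3* and in IR 3 for *Lct*. Set against the mean of the Con libraries for each gene, the median member stood at 0.845 in Con 1, 1.14 in Con 2 and 0.972 in Con 3. The IR libraries stood at 1.22, 1.18 and 1.09. Con 2 was above the Con mean in all 9 members, as was IR 2, whereas Con 1 was above it in *C1ql2* and *Trpc6* only. For *Dsp*, *Tdo2*, *Pdzd2* and *Glis3*, Con 2 was the Con library that did not lie below every IR library.

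**Figure D4:**
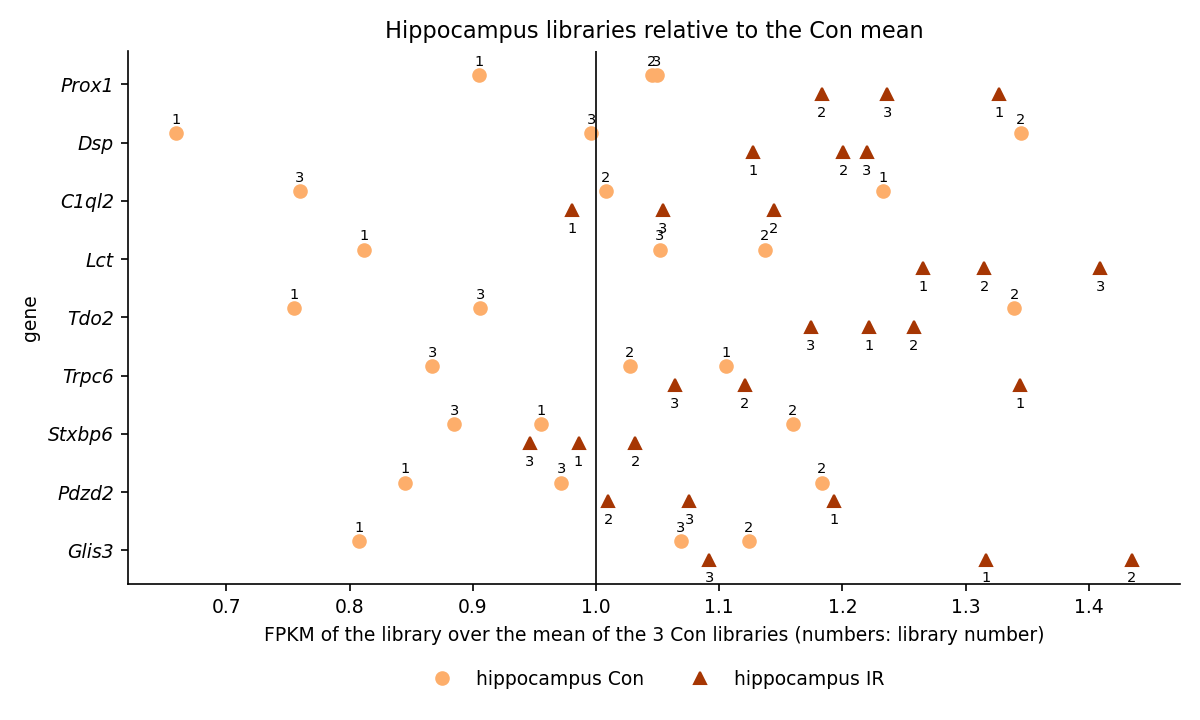
FPKM of each hippocampus library divided by the mean of the 3 Con libraries of the same gene, for the 9 markers, with circles for Con, triangles for IR and the library number beside each point. Con 1 is the lowest point for 6 genes, and Con 2 lies among the IR libraries or above them for *Dsp*, *C1ql2*, *Tdo2*, *Stxbp6*, *Pdzd2* and *Glis3*.

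Con 2 is also the Con library with high choroid plexus genes, and IR 1 the IR library, as given above, and the part of these in the members' levels was not tested. None of the 6 choroid plexus genes was at 0 in any hippocampus library, and 0 of the 6 passed in IR against Con. Without Con 2, 5 members had an unadjusted p under 0.05 (*Prox1*, *Dsp*, *Lct*, *Tdo2* and *Glis3*) in place of 2, against 5.06% of all genes that were higher at that p in the same libraries, and 6 members, *Pdzd2* included, were higher in IR without overlap, against 14.7% of all genes. Without both Con 2 and IR 1, an alternative added after the data were seen, 4 members had an unadjusted p under 0.05 (*Prox1*, *Dsp*, *Lct* and *Tdo2*), against 3.2% of all genes, and again 6 were higher without overlap, against 20.2% of all genes. No member had an adjusted p under 0.05 in either case. With Con 1 left out, 3 members had an unadjusted limma p under 0.05, all higher in IR. Over all genes, 4.91% were higher at that p. The median log2 fold change of the members went from 0.26 to 0.17 in that fit. The log2 fold change was 0.020 for *Pdzd2*, 0.17 for *Glis3* and 0.26 for *Lct*, whereas that of *C1ql2* went up to 0.27. Without Con 3 that of *Trpc6* was 0.12, and the number of all genes with an adjusted p under 0.05 went from 4 to 861 with no member among them.

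The other granule cell and mossy fibre genes were mixed. *Plk5*, a polo-like kinase gene, had log2 fold change 0.33 (adjusted p = 0.341) and *Akap7* -0.26 (adjusted p = 0.326), both by limma. Neither overlapped between the groups, and 9.36% of all genes were, like *Akap7*, lower in IR without overlap. *Calb1*, *C1ql3*, *Dock10* and *Sv2c* had log2 fold changes of -0.18, -0.09, 0.05 and 0.17, and *C1ql3* turned sign without Con 2 (0.023). In none of the 6 did the adjusted p reach 0.05. For *Calb1*, Con 2 was again the highest library, at 57.8 FPKM against 37.9 to 46.7 FPKM in the other 5.

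Markers of the neighbouring cells were set beside these values. The summed level of the 9 members was 126 to 158 FPKM in Con and 156 to 164 FPKM in IR. For CA1 it was 171 to 198 FPKM in Con and 139 to 185 FPKM in IR, with 0 of 5 genes above 0 on the log2 fold scale and 1 lower at an unadjusted p under 0.05. For CA3 it was 77.2 to 106 FPKM in Con and 98.3 to 103 FPKM in IR, with 5 of 5 above 0, and for CA2 189 to 224 and 211 to 249 FPKM. For the immature granule neurons and neuroblasts it was 46.4 to 68.0 FPKM in Con and 55.2 to 60.4 FPKM in IR, with 3 of the 5 tested genes above 0. Most of that sum is *Calb2* and *Neurod1*, so that it says little of the other genes of the list. *Calb2*, a calcium buffer of immature granule cells that mossy cells also use, stood at 37.1, 20.3 and 23.6 FPKM in Con and 33.3, 32.9 and 27.3 FPKM in IR. *Neurod1* stood at 14.8, 13.9 and 12.1 FPKM in Con and 14.1, 15.1 and 15.6 FPKM in IR. Thalamus genes summed to 15.5 to 21.2 FPKM in Con and reached 30.4 FPKM in IR 1 against 18.4 and 18.7 FPKM in the other IR libraries. Of the cells that are no neurons, endothelial genes summed to 33.4 to 39.0 FPKM in Con and 43.7 to 45.1 FPKM in IR, genes of meninges and fibroblasts to 13.1 to 27.4 and 24.1 to 35.2 FPKM, and those of oligodendrocyte precursors, which can also use *Prox1*, to 62.3 to 65.2 and 56.6 to 62.2 FPKM. The first and the last of these sums did not overlap between Con and IR, the last by only 62.24 FPKM in IR against 62.30 FPKM in Con. Most of the first sum is *Cldn5*, and most of the last is *Olig1*. Of the 3 genes in each, 1 endothelial gene was higher without overlap and 1 precursor gene lower. Over all genes, 10.5% were higher and 9.36% lower without overlap. None of these lists held a gene with an adjusted p under 0.05. Astrocyte genes summed to 256 FPKM in Con 1, the library with the lowest value of 6 members, against 167 and 200 FPKM in the other Con libraries and 180 to 216 FPKM in IR. Most of that sum is *Gfap*, an intermediate filament gene, at 212 FPKM in Con 1 against 125 and 146 FPKM in Con 2 and Con 3. Without *Gfap* the list was highest in Con 3, at 53.5 FPKM against 44.5 and 42.5 FPKM in Con 1 and Con 2, and *Aqp4*, a water channel gene, was likewise highest there, at 39.7 against 28.9 and 27.7 FPKM. Oligodendrocyte genes summed to 956 to 1158 FPKM in Con and 901 to 1153 FPKM in IR, and pan-neuronal genes to 1504 to 1665 and 1510 to 1595 FPKM. How far the make-up of the dissected piece entered the members' values was not tested.

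**Figure D5:**
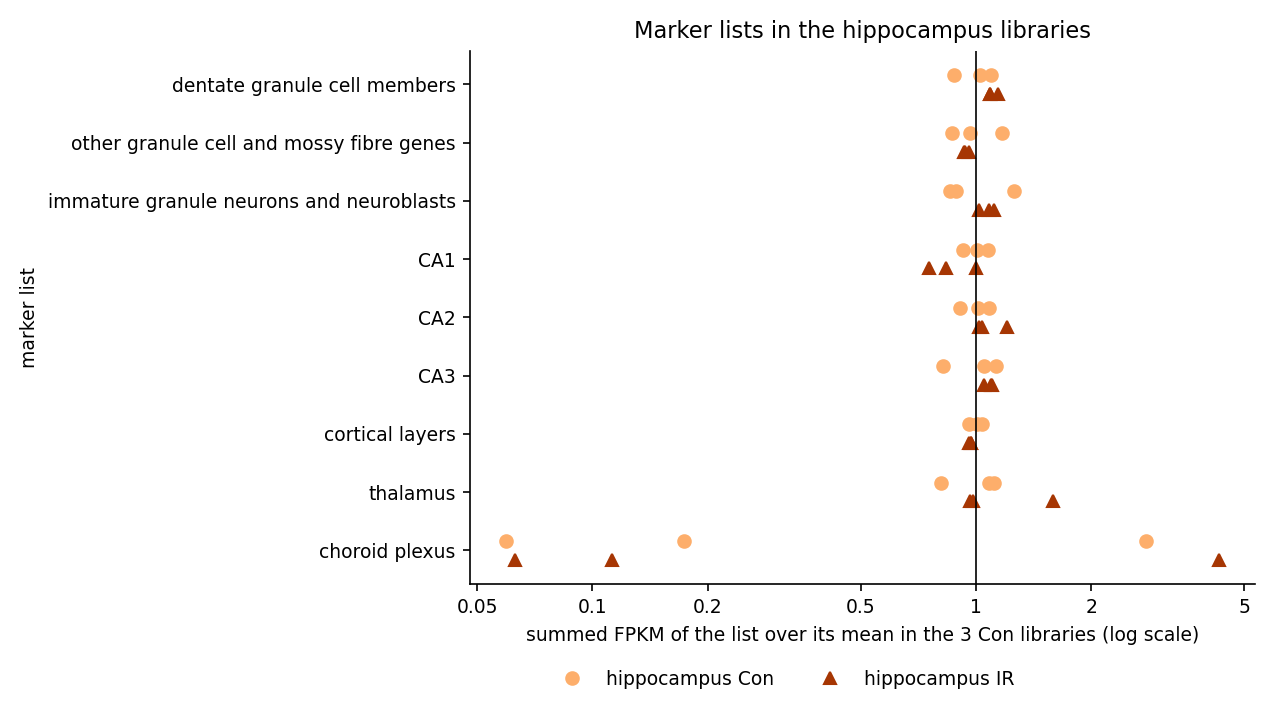
Summed FPKM of each marker list in the 6 hippocampus libraries, divided by the mean of the 3 Con libraries, on a log axis, with circles for Con and triangles for IR. The dentate granule cell members and most other lists stay close to 1, while the choroid plexus genes spread widely because of Con 2 and IR 1.

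In the cortex, where the members are low or are used by other cells, IR was compared with Con as a background. *Dsp*, *Lct* and *Tdo2* did not pass the filter and were not tested. Of the other 6 members, 0 had an adjusted p under 0.05 (limma, 14065 genes tested, 0.725% called) and 0 an unadjusted p under 0.05, against 14.1% of all genes. Their log2 fold changes lay between -0.10 and 0.09. *Prox1* was at 1.93, 1.69 and 2.23 FPKM in Con and at 2.23, 2.04 and 2.14 FPKM in IR, with overlap. *Glis3* was at 0.695, 0.735 and 0.820 FPKM in Con and at 0.617, 0.643 and 0.637 FPKM in IR, so that every IR library was lower. Its log2 fold change was -0.10 (SE 0.09, limma adjusted p = 0.670), and 9.09% of all genes were lower in IR without overlap.

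Whether the difference between IR and Con depended on the tissue was tested as an interaction over all 12 libraries. No member had an adjusted p under 0.05 (limma, 14459 genes tested, 12 genes or 0.083% called). *Dsp*, *Lct* and *Tdo2* are too low in cortex for this comparison, since a pseudocount of 1 holds their cortex difference near 0. The ratio of the IR to the Con mean was larger in cortex for *Tdo2* (1.55 against 1.22) and *Dsp* (1.34 against 1.18). Both cortex ratios rest on cortex IR 2, a library high in choroid plexus genes. *Tdo2* was at 0.192, 0.297 and 0.113 FPKM in cortex IR 1, 2 and 3. *Dsp* was at 0.0175, 0.0840 and 0.0171 FPKM there, with IR 1 and IR 3 below every cortex Con library. Of the other 6 members, *Glis3* had an unadjusted p under 0.05 and was more positive in hippocampus, as were 4.77% of all genes. Its difference between tissues was 0.38 on the log2 scale (SE 0.15, limma adjusted p = 0.423). That for *Prox1* was 0.21 (SE 0.12, limma adjusted p = 0.544), with a 95% interval of -0.04 to 0.47. The unadjusted p of *Glis3* was above 0.05 without cortex Con 3 (0.0552) and without hippocampus Con 1 (0.0728), IR 1 (0.0508) or IR 2 (0.0727), again by limma. The libraries high in choroid plexus genes, hippocampus Con 2 and IR 1 and cortex IR 2, were then left out. Of the 9 members, 4 had an unadjusted limma p under 0.05, *Lct* included. Over all genes, 3.14% were higher at that p. The count was taken over all 9, with *Dsp*, *Lct* and *Tdo2* among them. As these are too low in cortex for this comparison, nothing is drawn from the count.

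Finally, the genes whose levels ran most like the mean of the standardized members were looked up, as a description with no test. Over the 12 libraries these were *Cacna1c*, *Ahcyl2*, *Rreb1*, *Prdm8* and *Arhgef17*, with Pearson r of 0.992 to 0.993, and 650 of 14450 genes exceeded 0.95. All libraries of a tissue share that tissue's level, so that this likeness is mainly one of hippocampus over cortex. *Cacna1c*, the gene of an L-type calcium channel subunit, had means of 8.08 FPKM in cortex Con and 18.4 FPKM in hippocampus Con. *Pdzd2* itself had r of -0.70 over the 12 libraries, and the other 8 members 0.956 to 0.996. Within the 6 hippocampus libraries the closest genes were other ones, *Frzb*, *F8a*, *Tubgcp4*, *Tpcn2* and *Tmem106a*, with r of 0.981 to 0.995, and 29 of 14034 genes exceeded 0.95. There *Pdzd2* had r of 0.84 to the mean, *C1ql2* 0.15, *Trpc6* 0.56, *Stxbp6* 0.60 and the other 5 members 0.81 to 0.96. The points share only 6 libraries, and the members themselves enter the mean.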

How the data were processed

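Cortex and hippocampus RNA of 12 libraries was sequenced by the authors as paired ends on a NovaSeq from directional libraries. Per the paper's methods, the authors trimmed reads with FASTX_Trimmer and BBMap, aligned them with TopHat, estimated FPKM with Cufflinks and ran a geometric normalization in edgeR, and which of these steps the deposited FPKM passed through is not given in the sources used here. The submitters' processing notes name TopHat and mm10. Versions, annotation and the strand setting of the quantification are not given in the sources used here, and the labels and the paper differ on the RNA: the labels name Trizol and total RNA, the paper another kit and poly(A) selection, which was not settled here. *Prox1*, *Dsp*, *Trpc6*, *Stxbp6*, *Pdzd2* and *Glis3* overlap other genes on the opposite strand in GENCODE M21, so that shared reads cannot be told apart.

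The FPKM as deposited were used. Genes that reached 0.5 FPKM in 3 or more of the 6 libraries compared (of either tissue for the interaction) were fitted on log2(FPKM + 1) in limma 3.58.1 (R 4.3.3) with a trend and a robust prior, and p values were adjusted by Benjamini-Hochberg over all genes tested. The steps were tested on simulated data. Gene positions are from GENCODE M21 on GRCm38, and all 9 members matched a RefSeq promoter. Named were all members, 6 other granule cell and mossy fibre genes, for each of the other lists at most its 2 most abundant genes, 3 untested genes of immature neurons named after their values were seen, and the 5 genes most like the members. The members and lists were chosen with earlier results of these data known, and 1 listed gene is not reported here. Alternatives were other filters, pseudocounts, normalizations and priors, a replicate block, a fit of all 12 libraries and leaving out libraries.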

Additional observations from a re-analysis of the deposited data

Results flagged for a closer look

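*Glis3* had IR values on opposite sides of the Con mean in the tissues, although neither tissue passed on its own (limma adjusted p = 0.363 in hippocampus and 0.670 in cortex). All 3 hippocampus IR libraries (4.06, 4.43 and 3.37 FPKM) were above the hippocampus Con mean of 3.08 FPKM, and all 3 cortex IR libraries (0.617, 0.643 and 0.637 FPKM) were below the cortex Con mean of 0.750 FPKM. In hippocampus the groups overlapped, with Con 2 at 3.47 FPKM above IR 3. The interaction on the log2 scale was 0.38 (limma, unadjusted p = 0.0262, adjusted p = 0.423), and it stayed between 0.27 and 0.57 over the alternatives that were fitted, and from ratios of means it was 0.60. *Glis3* was flagged by these same values, so that the interaction gives no separate support. How many of all genes lay on opposite sides in this way was not counted. In cortex *Glis3* was at 0.617 to 0.820 FPKM, near the filter of 0.5 FPKM and below the stricter one of 1 FPKM.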

How the results depend on the processing

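Hippocampus against cortex: 9 members passed in every alternative with all libraries except without a filter, where *Pdzd2* was lost, and with at least 1 FPKM in every library, where 5 were left (unadjusted 5, median 0.79) because the others were too low in cortex. The median log2 fold change of 2.13 became 2.97 with a pseudocount of 0.1 and 3.03 from ratios of means. IR against Con in hippocampus: members with an adjusted p under 0.05 stayed at 0 in all alternatives. The 4 genes called in all became 2 with the stricter filter, 1 without the libraries high in choroid plexus genes and 74 with all 12 libraries in a single fit. Without those high libraries 4 members had an unadjusted p under 0.05 (3.2% of all genes were higher at that p), 6 were higher without overlap (20.2% of all genes), and *Stxbp6* (0.10) and *C1ql3* (0.043) turned sign, as did *Stxbp6* under quantile normalization (0.029). Leaving out 1 library gave 2 to 861 genes (861 without Con 3), 2 to 5 members at an unadjusted p (4.55% to 10.8% of all genes), 2 to 6 without overlap (14% to 20.5%), a median of 0.17 to 0.34, and log2 fold changes of -0.090 to 0.10 for *Stxbp6*, -0.18 to 0.023 for *C1ql3* and -0.075 to 0.27 for *C1ql2*. IR against Con in cortex: 102 genes became 24 with no filter, 22 with limma without trend or robust prior, 28 without cortex IR 2, which then left 1 member higher without overlap (15.6% of all genes), and 17 to 77 on leaving out 1 library (17 without IR 1), with 0 to 1 member higher without overlap (14.5% to 17.5% of all genes) and a median of 0.037 to 0.093. Interaction: the 12 genes became 7 with no filter, 19 with the stricter filter, 0 with limma without trend or robust prior, 0 without the high libraries and 0 to 487 on leaving out 1 library (487 without hippocampus Con 3). Its 2 members at an unadjusted p, *Glis3* and *Lct*, of which *Lct* is too low in cortex for this test, became 1 with a pseudocount of 0.1, 0 with the stricter filter, 1 under quantile normalization, 4 without the high libraries (3.14% of all genes were higher at that p) and 0 to 4 on leaving out 1 (3.37% to 7.75%). Its median of 0.17 became 0.14 with the pseudocount, 0.033 with the stricter filter, 0.024 from ratios of means, 0.26 without the high libraries and 0.12 to 0.24 on leaving out 1. The median of 0.17 is the value of *Tdo2*. Except with the stricter filter, the interaction counts and medians include *Dsp*, *Lct* and *Tdo2*, which are too low in cortex for this test. Nothing is drawn from them. The causes of these shifts were not tested.

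The deviations of same-numbered libraries from their group means correlated at -0.04 to 0.20 between the tissues of Con (mean 0.07, against -0.04 for other numbers), -0.08 to 0.14 between the tissues of IR, -0.39 to -0.09 for IR and Con in hippocampus and -0.11 to 0.11 in cortex. In none of these were all 3 pairs above 0.1. Con and IR libraries come from different mice, since each mouse was either sham-irradiated or irradiated. Between the tissues, the correlations do not settle whether same-numbered libraries come from the same mouse, and the main fits use no pairing. The replicate block gave 4967 genes between tissues, 1 in hippocampus IR against Con, 71 in cortex and 0 for the interaction, where 1 member had an unadjusted p under 0.05. It changed no call of a member at an adjusted p under 0.05. With no counts, counting error is not covered, and *Dsp*, *Lct* and *Tdo2* in cortex are too low to compare.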
